A study of Mus musculus with 2 samples.

Results

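Among genes that set fetal apart from adult blood programmes, 10 were followed by symbol in total RNA of G1E cells: the RNA-binding proteins Lin28a, Lin28b, Igf2bp1, Igf2bp2 and Igf2bp3, the chromatin proteins Hmga1 and Hmga2, and the transcription factors Bcl11a, Sox6 and Zbtb7a. All 10 had a row among the 43346 genes of both gene tables. They were chosen by name with their TPM and expected counts in these libraries already known, so the levels are described here without a test. G1E is an immortalized mouse erythroid progenitor line that the labels mark as Gata1-, grown from embryonic stem cells in which the gene was disrupted. Gata1 encodes the factor that drives erythroid maturation. The labels give both samples as male, strain C57BL/6J, postnatal and 0 day of age, with no treatment and no second line. There is 1 group with 2 biological replicates of 1 line, and no contrast between fetal and adult cells can be made from it. Library preparation started from 100 ng of RNA depleted of ribosomal RNA, with a size range of 200 to 1000 nt. Expected counts (estimated reads, which need not be whole) summed over genes to 58094631 in replicate 1 and 55274368 in replicate 2.

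In fetal blood progenitors LIN28 proteins bind the precursors of let-7 microRNAs and block their maturation, and let-7 in turn represses mRNAs that carry its sites, among them those of IGF2BP and HMGA2 proteins. This circuit is known for marking fetal against adult haematopoiesis. BCL11A and ZBTB7A (also called LRF) are separate repressors that silence embryonic or fetal globin genes in adult erythroid cells, and SOX6 is known to act with BCL11A and to silence the embryonic beta-like globin gene in mice. Levels below are TPM, a scaled share of transcripts corrected for effective length, and are given as mean ± SD of the 2 libraries (n = 2). Detection meant 1 TPM or more in each library.

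The let-7 family is shown first, because its seed defines the sites described here in the regulators. All 9 distinct mature sequences in RefSeq (GRCm38.p6) carry the same seed, bases 2 to 8, printed in capitals.
let-7a: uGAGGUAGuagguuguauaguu
let-7g: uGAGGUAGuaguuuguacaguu
miR-98: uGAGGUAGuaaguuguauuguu

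LIN28 recognises a GGAG stretch in the precursor. Of 12 hairpins, 11 list both arms, and 8 of those hold GGAG between the arms, with the first such stretch in capitals. Hairpins of let-7g (chr9:106178840-106178927, plus strand) and let-7b (chr15:85707319-85707403, plus strand) show a case with it and a case without it.
let-7g hairpin: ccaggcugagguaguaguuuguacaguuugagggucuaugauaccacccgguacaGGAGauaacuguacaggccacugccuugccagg
let-7b hairpin: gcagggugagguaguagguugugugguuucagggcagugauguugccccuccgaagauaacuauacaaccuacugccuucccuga

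Matches to the seed, CTACCTC read on the mRNA strand only, were found in the annotated 3' UTRs of 7 of the 10 genes, 17 matches in all. Lin28b, Igf2bp1 and Hmga2 held 4 each, Lin28a 2, and Igf2bp2, Igf2bp3 and Hmga1 1 each. No match was found in the 3' UTRs of Bcl11a, Sox6 or Zbtb7a. For Igf2bp2, Hmga1, Hmga2 and Sox6 the UTR used, the longest annotated, was not that of the transcript with the largest share of TPM. The Igf2bp2 and Hmga2 transcripts used had 0 counts in both libraries, and those used for Hmga1 and Sox6 had no value in either. To set the expressed members of the LIN28, IGF2BP and HMGA families beside a low paralog of each, windows of 30 bases around some matches are printed with the match in capitals (mm10, all on the minus strand except Hmga1).
Lin28b, chr10:45381021-45381050: cccttcacccgggcgggaagtCTACCTCat
Lin28a, chr4:134005188-134005217: tggagtgcacagcctgttgaaCTACCTCat
Igf2bp1, chr11:95961777-95961806: ggcagtgctgtgcgaagtaaaCTACCTCaa
Igf2bp1, chr11:95959356-95959385: gggaaccagcagtgctattaaCTACCTCag
Igf2bp3, chr6:49086786-49086815: taaacgtgcatttttactcaaCTACCTCag
Igf2bp2, chr16:22059472-22059501: agaaaaacacacaaataaaagCTACCTCag
Hmga1, chr17:27563271-27563300: atcttctcctctgttcacaaaCTACCTCtg
Hmga2, chr10:120364223-120364252: gggggcgccgacattcaatttCTACCTCag

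Several of these mRNAs are textbook let-7 targets, so the matches describe the genes and are no finding about G1E. Over 21021 nuclear protein-coding genes with an annotated 3' UTR, 9.02% held at least 1 match in their longest one, with a median UTR of 961 nt. Length matters to such a count. Lin28b has a UTR of 4445 nt, and of 1357 genes with a UTR of 0.8 to 1.25 times that length 24.3% held a match and 0.221% held 4 or more. For Igf2bp1, with 6337 nt, those shares were 34.3% and 0.166% of 604 genes, and for Hmga2, with 3014 nt, 16.0% and 0.0820% of 2438 genes. Igf2bp3, with 2119 nt, and Hmga1, with 1183 nt, each held a single match, and 13.3% and 8.21% of genes of like length held at least 1. The presence of a match does not say how often it is bound, and mature let-7 RNAs are shorter than the size range of the libraries.

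**Figure D1:**
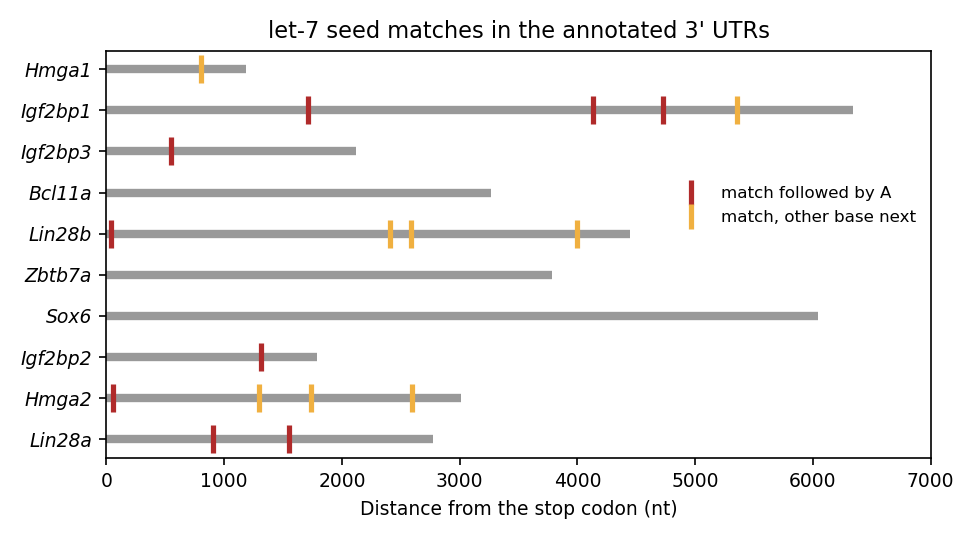
Positions of let-7 seed matches along the longest annotated 3' UTR of each regulator, in nt from the stop codon; grey bars are the UTRs, red ticks are matches followed by an A and yellow ticks are matches followed by another base. Lin28b, Igf2bp1 and Hmga2 carry 4 matches each, and Bcl11a, Zbtb7a and Sox6 carry none.

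Across the 10 genes the levels spanned from Hmga1 at 19.4 ± 0.728 TPM down to Lin28a at 0.0150 ± 0.00707. Detected in both libraries were 6: Hmga1, Igf2bp1, Igf2bp3, Bcl11a, Lin28b and Zbtb7a, in falling order. Over all 43346 genes 21.0% were detected, and over the 21461 nuclear protein-coding genes 38.7%. At 0.5 TPM the same 6 regulators passed, with 41.7% of nuclear protein-coding genes. Nothing is read from these shares, because the regulators were chosen with the levels known. The median of their mean TPM was 1.89, against 0.0550 for nuclear protein-coding genes. Set among nuclear protein-coding genes, Hmga1 lay above 92.5% of them, Igf2bp1 above 82.5%, Igf2bp3 above 79.6%, Bcl11a above 73.5%, Lin28b above 67.9% and Zbtb7a above 61.8%. Sox6 lay above 56.5%, Igf2bp2 above 53.4%, Hmga2 above 45.1% and Lin28a above 30.6%, since many coding genes were at or near 0. Most neighbours in the order did not overlap between the libraries. The ranges of Igf2bp1 and Igf2bp3 did overlap, although Igf2bp1 was the higher within each library, by 1.26 and 1.17 times. Those of Hmga2 and Lin28a overlapped too, with both at 0.01 TPM in replicate 2. Without the length correction, in CPM (counts scaled to library size), the top of the order became Igf2bp1 at 159 ± 16.3, Igf2bp3 at 79.9 ± 10.1 and Hmga1 at 76.2 ± 0.366.

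**Figure D2:**
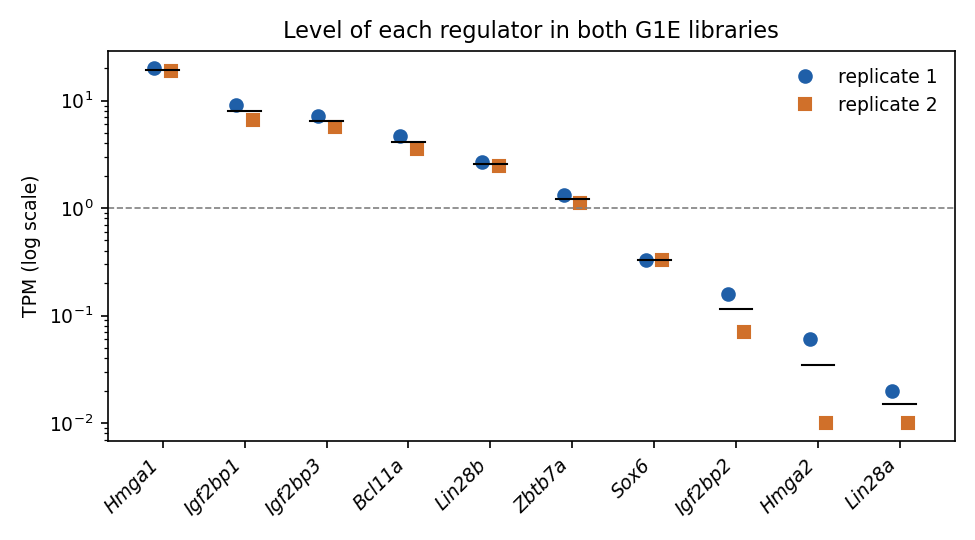
TPM of each of the 10 regulators (log scale) in replicate 1 (circles) and replicate 2 (squares), with the mean as a bar and the detection threshold of 1 TPM dashed. Hmga1 is highest, at 19.91 and 18.88 TPM, and Sox6, Igf2bp2, Hmga2 and Lin28a lie under the threshold in both libraries.

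Of the LIN28 pair, the RNA was almost wholly Lin28b. Lin28b (chromosome 10, 45376620 to 45486395, minus strand, mm10) stood at 2.68 TPM in replicate 1 and 2.44 in replicate 2, from 2346 and 2163 expected counts. Lin28a (chromosome 4, 134003330 to 134018841, minus strand), the paralog used as a pluripotency factor, stood at 0.02 and 0.01 TPM, from 11 and 7 counts. The Lin28b level was the higher in both libraries, by 134 and 244 times in TPM, although the small Lin28a counts make the size of that ratio loose. On the log2(TPM + 1) scale, which understates ratios of low genes, the difference was 1.81 ± 0.06. Lin28b has 1 transcript in the tables, of 5402 nt, with a coding region of 813 nt in GENCODE M21. All Lin28a counts fell on its transcript of 3505 nt. The tables give an interval of TPM per gene, whose level they do not state, and for Lin28b it was 2.55 to 2.77 TPM in replicate 1, around its estimate. For Lin28a it was 0.0280 to 0.187 and lay wholly above the estimate of 0.02, so such intervals say little at a few counts.

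Because Lin28a and several of the others are also known from embryonic stem cells, the label of the line was set against marker lists. Over all genes 21.0% were detected, and over nuclear protein-coding genes 38.7%. All 12 erythroid progenitor markers were detected, with a summed level of 723 and 686 TPM. None of 8 pluripotency markers was, at 0.130 and 0.0600 TPM summed, and Zfp42, Dppa5a and Utf1 had 0 counts. None of 10 lymphoid markers, looked at because Bcl11a is also a B cell factor, was detected, at 0.50 and 0.45 TPM summed. Most of that sum was Lck, at 0.31 and 0.38 TPM from 28 and 31 counts.

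Genes that process or destroy let-7 precursors were nearly all present. Of 14, 13 were detected, beside 38.7% of nuclear protein-coding genes. The list median was 6.27 ± 0.304 TPM, against 0.0550 for nuclear protein-coding genes. For list medians, ± is the SD of the medians of the 2 libraries. Tut7, a uridylyltransferase that LIN28-bound precursors can recruit, led at 14.65 and 12.33 TPM. Its paralog Tut4 stood at 7.74 ± 1.92 TPM, and Dis3l2, the nuclease that degrades the uridylated precursor, at 7.74 ± 0.672, both named after their values were seen. Xpo5, which exports precursors from the nucleus, stood at 10.3 ± 1.32 TPM, and Khsrp, which promotes let-7 processing, at 9.06 ± 1.12. The single undetected gene was Trim71, a let-7 target of early embryos and a marker of undifferentiated cells, with 28 counts in replicate 1 and 1 in replicate 2.

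The let-7 genes themselves could not be read from these tables. Of 12, 10 had a row, and effective lengths there were 0 or at most 1.36 nt, as the annotated precursors are shorter than the fragments. Counts were 0 in both libraries for 9 of them, and Mir98 held 0 and 3. A TPM of 12.98 for Mir98 in replicate 2 rests on those 3 counts and is no measure of its level. Longer genes that contain a let-7 hairpin on the same strand do have values, found from the annotation after the files were seen. The noncoding RNA gene 6720427I07Rik, whose span on chromosome 13 holds let-7a-1, let-7f-1 and let-7d, stood at 10.65 and 9.27 TPM. Huwe1, which contains let-7f-2 and Mir98, stood at 18.7 ± 3.66 TPM, and Wdr82, which contains let-7g, at 16.6 ± 0.177. Mir99ahg, host of let-7c-1, had 12 and 7 counts, and 3110039I08Rik, host of let-7a-2, had 15 and 22. Spaca6, host of let-7e, lay between, at 0.83 and 0.42 TPM. Of 6 host genes 3 were thus detected, beside 21.0% of all genes and 38.7% of nuclear protein-coding genes. Nothing is read from so small a count, and no value here gives the amount of mature let-7.

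In the IGF2BP family, whose members bind and stabilise mRNAs, Igf2bp1 and Igf2bp3 were present and Igf2bp2 was not detected. Igf2bp1 (chromosome 11, 95957163 to 96005940, minus strand) stood at 9.17 and 6.67 TPM, from 9894 and 8137 counts. Igf2bp3 (chromosome 6, 49085223 to 49214957, minus strand) stood at 7.25 and 5.68 TPM, from 5057 and 4020 counts. Both were lower in replicate 2, and their ranges overlap across the libraries. Igf2bp2 (chromosome 16, 22059009 to 22163299, minus strand), the member most widely expressed in adult tissues, stood at 0.16 and 0.07 TPM, from 34 and 13 counts. The log2 ratio of Igf2bp2 over Igf2bp1 was -2.99 ± 0.21 and that of Igf2bp3 over Igf2bp1 was -0.25 ± 0.07.

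Transcript estimates for Igf2bp2 rest on 34 and 13 counts, differed between the libraries and do not sharpen this split. No Igf2bp2 read was assigned to a coding transcript in replicate 1, and 9 were in replicate 2, so coding Igf2bp2 stood at 0 and 0.02 TPM. By posterior mean TPM its coding transcripts took 2.9% and 2.6% in replicate 1. Its other counts lay on transcripts with a retained intron, and the leading one differed between libraries. For Igf2bp1 the coding transcript of 8378 nt stood at 7.03 and 5.77 TPM. A noncoding Igf2bp1 transcript of 690 nt took 18.2% of the gene's TPM in replicate 1 from 135 counts, and 8.5% in replicate 2 from 47.9. The effective length of the gene, a mean over its transcripts, was 6393 nt in replicate 1 and 7166 in replicate 2. The Igf2bp1 coding transcript alone, at 6.40 ± 0.891 TPM, lay within the range of Igf2bp3, at 6.46 ± 1.11. Igf2bp3 has 1 transcript in the tables. It overlaps Malsu1 on the opposite strand, which held 1327 and 1245 counts, and the sources used here do not give whether counting used strand.

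Of 17 mRNAs known as let-7 or IGF2BP targets, 12 were detected, beside 21.0% of all genes and 38.7% of nuclear protein-coding genes. The list median was 6.08 ± 0.205 TPM. Actb led at 565 ± 52.2 TPM, and cyclin D2 (Ccnd2) stood at 23.8 ± 4.09. Arid3a, a let-7 target of B cell development in the fetus, stood at 6.08 and 6.07 TPM, and Myc at 6.32 ± 0.509. Cbx2 was at 0.02 TPM in both libraries. The imprinted fetal growth gene Igf2, after which the IGF2BP family is named, held 20 and 4 counts, and the linked RNA H19 held 4 and 0. These genes, Arid3a, Myc, Igf2 and H19, were singled out after their values were seen.

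HMGA proteins bend AT-rich DNA and are abundant in embryonic and proliferating cells. Hmga1 (chromosome 17, 27556497 to 27563674, plus strand) stood at 19.91 and 18.88 TPM, from 4411 and 4225 counts. Hmga2 (chromosome 10, 120361275 to 120476469, minus strand), the member most closely tied to the LIN28B and let-7 circuit in fetal stem cells, stood at 0.06 and 0.01 TPM, from 34 and 8 counts. On the log2(TPM + 1) scale a ratio of 4.30 (SD 0.00) separated them, which at so low an Hmga2 level mostly gives the level of Hmga1. In TPM, Hmga1 was the higher by 332 and 1888 times, a loose ratio at few Hmga2 counts. So Lin28b, Igf2bp1 and Igf2bp3 were detected in the same libraries in which Hmga2 was not.

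Hmga1 has a near-identical paralog, so its total is read with care. Hmga1b (chromosome 11, 120762794 to 120764419, plus strand) stood at 21.00 and 19.23 TPM, and the log2 ratio of Hmga1 over it was -0.05 ± 0.03. Of all stretches of 50 bases in the leading Hmga1 transcript of M21, 83.2% also occur in the Hmga1b transcript, and 83.4% in the reverse direction. The division between both genes is thus an estimate, and their sum was 39.5 ± 1.98 TPM. For Hmga1b the authors' interval of TPM was wide, 20.2 to 37.9 in replicate 1, whereas for Hmga1 it was 18.9 to 20.6. The authors' posterior mean TPM for Hmga1b was 26.5 in that library, above the estimate of 21.00. An Hmga1b transcript of 120 nt with 0 counts took 21.3% of that posterior mean. The source of the wide interval was not tested, so it is not read here as a measure of shared reads. Hmga1 also overlaps AI413582 on the opposite strand, which held 836 and 917 counts.

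Alternative splicing of Hmga1 gives a longer and a shorter protein. Transcripts whose M21 coding region has 288 nt (stop codon left out) took 77.0% and 77.8% of Hmga1 TPM, at 15.31 and 14.69. Those with 321 nt took 11.8% and 15.6%, and a transcript with 318 nt took 11.2% and 5.7%. The share of the 288 nt form differed little between the libraries, although the leading transcript, of 1593 nt, went from 75.4% to 66.8% while another of the same coding length, 1898 nt, went from 1.6% to 11.0%. Hmga1b encodes a region of 321 nt, and how far it shares reads with each Hmga1 form was not tested.

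**Figure D3:**
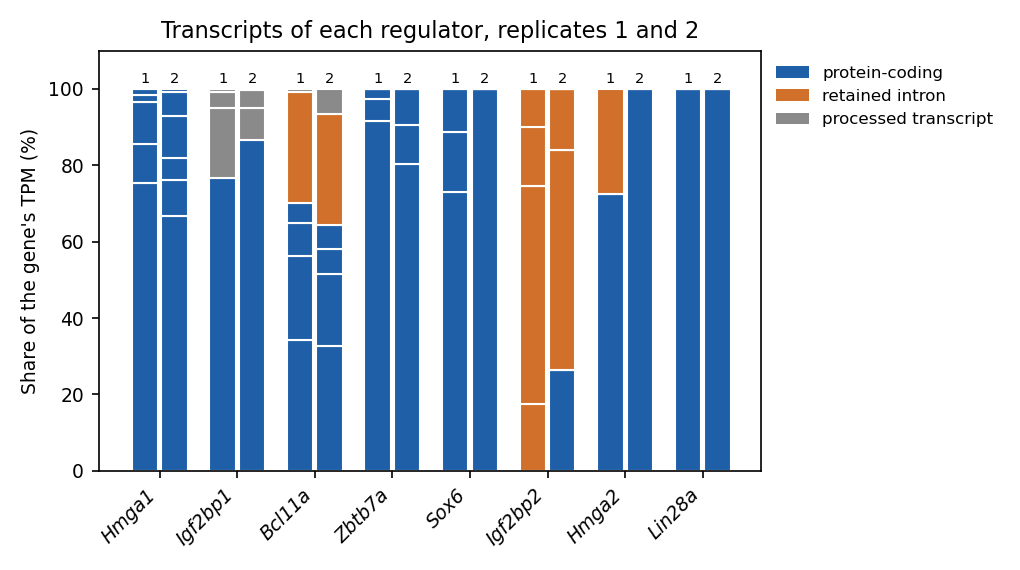
Share of each gene's TPM taken by its transcripts (percent) for the 8 regulators with at least 2 transcripts, with replicates 1 and 2 side by side and colours for the annotated transcript class. Bcl11a has 29% of its TPM on a transcript with a retained intron in both libraries. Igf2bp2 has no coding share in replicate 1, where the gene held 34 counts.

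The 3 transcription factors lay at different levels. Bcl11a (chromosome 11, 24078056 to 24174123, plus strand) stood at 4.69 and 3.58 TPM, from 3358 and 2532 counts. Zbtb7a (chromosome 10, 81135220 to 81152995, plus strand) stood at 1.31 and 1.11 TPM, from 1192 and 935 counts, just over the threshold. Sox6 (chromosome 7, 115470872 to 116038796, minus strand) stood at 0.33 TPM in both libraries, from 408 and 448 counts. Bcl11a was above Zbtb7a in both libraries, with a log2 ratio of Zbtb7a over Bcl11a of -1.21 ± 0.13, and Zbtb7a was above Sox6 by 3.97 and 3.36 times in TPM. Sox6 RNA was under the threshold of detection but far above the limit of counting, as 3 counts are worth 0.00243 and 0.00221 TPM there. Nuclear protein-coding genes held 18.0% and 17.0% of all TPM. When TPM was rescaled so that these genes alone made up the total, Sox6 stood at 1.83 and 1.94 and passed, which made 7 regulators. On that scale 44.6% of nuclear protein-coding genes passed, among them the lymphoid marker Lck, at 1.72 and 2.24.

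Bcl11a TPM was spread over several forms. The coding transcript of 5989 nt, with the longest coding region at 2505 nt, took 34.2% and 32.8% of Bcl11a TPM. A transcript of 5885 nt with a retained intron took 28.9% and 29.1%, with 1299 and 1012 counts. Coding regions of 573 and 729 nt, which give short proteins, took 22.0% and 18.7%, and 8.6% and 6.5%. In reads their part was smaller, with 225 and 149.9 counts, and 144 and 84.5. The coding transcript of 5989 nt held 1567 and 1161 counts. The coding form of 2319 nt took 5.4% and 6.3%. Summed over coding transcripts, Bcl11a stood at 3.29 and 2.30 TPM. Its long form thus stood at 1.61 and 1.18 TPM, close to Zbtb7a, whose transcripts with the coding region of 1707 nt stood at 1.24 and 1.01 TPM.

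Sox6 and Zbtb7a were each carried mainly by 1 transcript. The Sox6 transcript of 8079 nt took 73.1% of Sox6 TPM in replicate 1 and 100.0% in replicate 2. The Zbtb7a transcript of 5938 nt took 91.6% and 80.4%. Among 8 regulators with several transcripts, the leading one was the same in both libraries for 7, and Igf2bp2 was the exception.

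Paralogs of these factors differed from them in both directions. Bcl11b, the T cell counterpart of Bcl11a, held 16 and 6 counts. The SoxD partners Sox5 and Sox13 held 23 and 4, and 8 and 4 counts. Zbtb7b, known for T helper cell fate, was higher than Zbtb7a in both libraries, at 4.31 and 5.44 TPM, and the log2 ratio of Zbtb7a over it was -1.41 ± 0.29. Zbtb7c held 14 and 13 counts.

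Partners through which BCL11A and ZBTB7A repress, and other regulators of globin switching, were nearly all present. Of 31 such genes, 28 were detected, beside 38.7% of nuclear protein-coding genes. The list median was 9.63 ± 1.38 TPM. Rbbp7 and Chd4, subunits of the nucleosome remodelling complex NuRD, stood at 105 ± 13.6 and 61.9 ± 7.33 TPM, and its methyl-binding subunit Mbd2 at 47.97 and 46.95. The undetected genes were the nuclear factor I genes Nfia, at 0.25 and 0.17 TPM, and Nfix, at 0.80 and 0.46, and the nuclear receptor Nr2c1, at 0.95 and 0.83. Embryonic globin genes were at or near 0 and were named after their values were seen. Hbb-y held 0 and 1 counts, Hbb-bh1 1 and 5, and Hba-x 0 and 2. Whether the repressors act on them in these cells was not tested. Of 8 globin genes listed, 3 were detected, all adult genes, a share near the 38.7% of nuclear protein-coding genes. Hba-a2 stood at 126.40 and 154.72 TPM, Hba-a1 at 44.91 and 56.54, and Hbb-bs at 1.41 and 3.31. Hbb-bt, at 0.90 and 1.98 TPM, was under the threshold in replicate 1 only. Expected counts of Hbb-bs and Hbb-bt in replicate 1 were not whole, at 110.5 and 74.5. For both, the authors' posterior SD was above 5%, the mark set here for shared reads. The split between a detected Hbb-bs and an undetected Hbb-bt is thus uncertain.

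**Figure D4:**
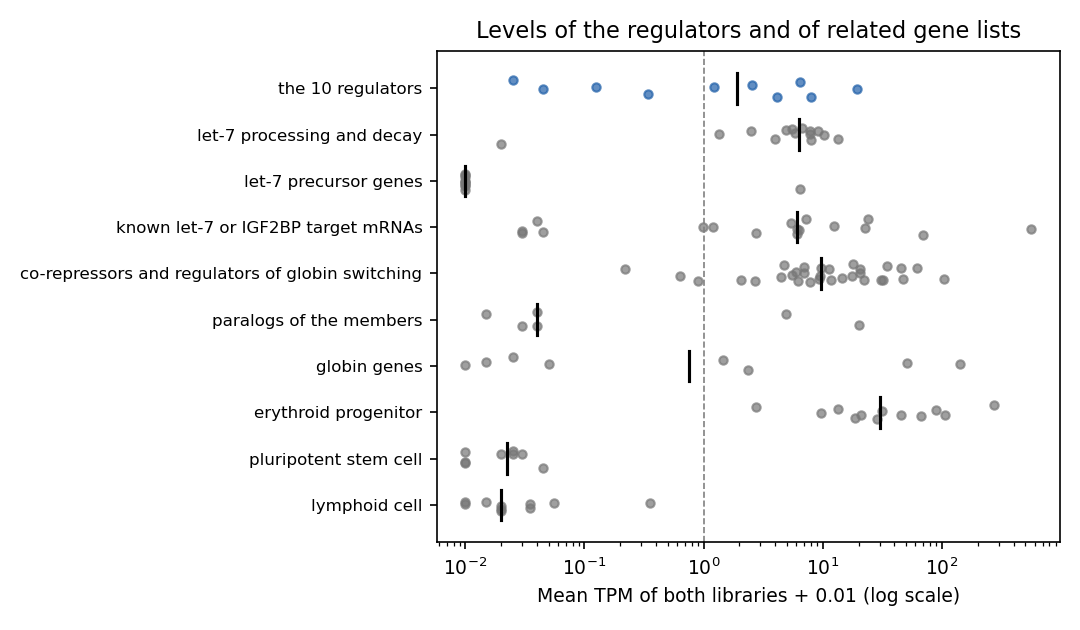
Mean TPM of each gene of the 10 regulators and of the related lists, plotted as TPM + 0.01 on a log scale, with the list median as a black bar and the detection threshold dashed. The single let-7 precursor to the right is Mir98, whose value rests on 3 counts, and the pluripotent and lymphoid markers lie under the threshold.

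Since the line has 1 group, the only test across genes compared its 2 libraries, and it knows counting error only. The labels call the samples biological replicates and do not say whether they came from separate cultures. The p-values of this test measure only departure from counting error between these 2 samples and hold no estimate of spread among replicates. Of 18409 genes with 10 counts or more summed over the libraries, 14.7% differed at least 2-fold at an adjusted p under 0.05 by a two-sided exact binomial test with Benjamini-Hochberg adjustment, 10.3% being lower and 4.35% higher in replicate 2. Among the regulators 2 of 10 did, Hmga2 and Igf2bp2, both lower in replicate 2. For Hmga2 the log2 difference of scaled counts was -1.92 (adjusted p = 0.000921, exact binomial test), and for Igf2bp2 it was -1.22 (adjusted p = 0.0189, exact binomial test). Both are genes of few reads. Of 4321 nuclear protein-coding genes with a mean of 5 to 50 counts, 32.9% differed and 26.2% were lower in replicate 2, with a median of -0.52 among those with reads in both. Lower counts in replicate 2 were thus common among genes of few reads. Among genes of the related lists, Igf2, Mycn, Sox5, Rag1 and Trim71 were lower in replicate 2 by the same test. Hbb-bs and Hbb-bt were higher, by 1.24 and 1.38 in log2 scaled counts, although the division of reads between them is an estimate. Without the minimum fold 8 of the 10 regulators differed, and so did 50.4% of all genes tested.

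The 6 detected regulators differed by less than the 2-fold limit. Their log2 differences in scaled counts ran from -0.24 for Bcl11a to 0.11 for Hmga1, with a median of -0.14, against 0.06 for detected nuclear protein-coding genes, of which the middle 90% lay between -0.24 and 0.48. Bcl11a thus sat at the lower edge of that range (adjusted p = 2.97e-09, exact binomial test). For Lin28b the difference was 0.05 (adjusted p = 0.320, exact binomial test), the smallest among the 10. Sox6 was higher in replicate 2 by 0.30 in scaled counts, although its TPM was the same in both.

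**Figure D5:**
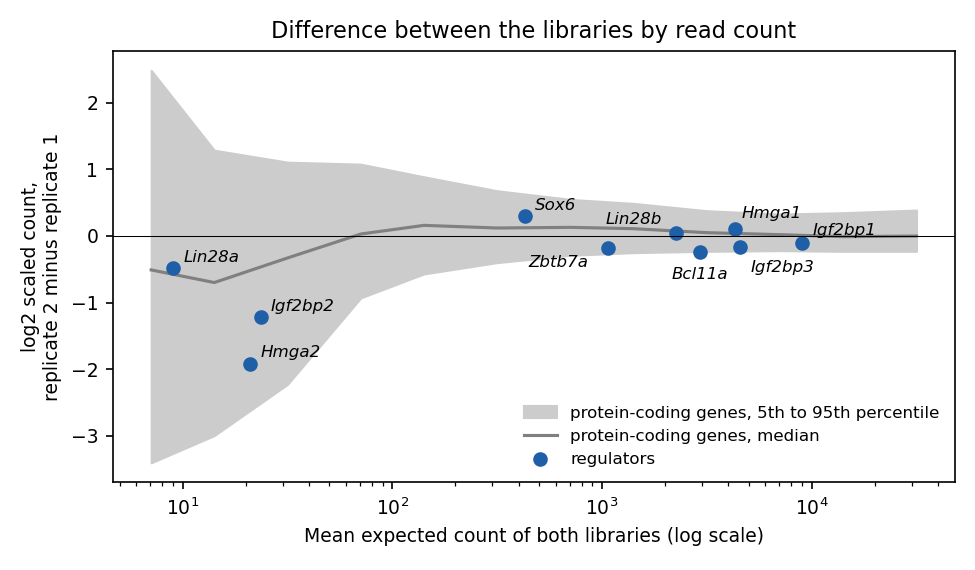
Difference between the libraries in log2 scaled counts (replicate 2 minus replicate 1) against the mean expected count (log scale), for the 10 regulators (points) and as the 5th to 95th percentile (grey band) and median (line) of nuclear protein-coding genes. Hmga2 and Igf2bp2 are lower in replicate 2, at -1.92 and -1.22, within a band that widens at low counts.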

How the data were processed

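The authors deposited gene and transcript tables per library, made on the mm10 assembly with GENCODE release M4 per the file headers and read-me texts; which aligner and quantifier were used, and the use of strand, is not given in the sources here. The deposited expected counts are estimated reads, the deposited TPM and FPKM values are scaled by effective length, and the deposited percent gives each transcript's share of its gene. Names, transcript classes and 3' UTRs came from GENCODE M21 on the same assembly, matched on gene identifiers without version (42462 of 43346 genes), with UTRs as exonic bases after the stop codon of each gene's longest one. Hairpin and mature miRNA sequences are from RefSeq. The 26345 rows without a gene held 20 and 37.6 counts and were left out.

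Counts were rounded, scaled by TMM (edgeR 4.0.16; DESeq2 1.42.0 size factors as an alternative; R 4.3.3) and compared between libraries with a two-sided exact binomial test, Benjamini-Hochberg adjusted over genes with at least 10 counts. The test was checked on simulated data with counting error only, which cannot show how it behaves where replicates vary by more than that. Log2 ratios of TPM use a pseudocount of 1. Rescaled TPM sets nuclear protein-coding genes to the full total. A count of 0 allows up to 3 counts, 0.0516 and 0.0543 CPM; such limits cover counting error only. The 10 genes and all lists were chosen with earlier results of these data known. Named from each list were its 3 highest and its lowest genes, undetected genes where there were 4 or fewer, and all paralogs; some listed genes are not reported here. Protein features were not analysed here. Python 3.11.15 with scipy 1.17.1 did the rest.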

Additional observations from a re-analysis of the deposited data

How the results depend on the processing

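The count of detected regulators stayed within 1.5 times of 6 under a threshold of 0.5 TPM, rescaled TPM, posterior mean TPM, FPKM, coding transcripts only (added after seeing the data) and each library alone (6 and 6); at 5 TPM it was 3. Without the minimum fold, 8 regulators and 9272 genes passed the test between libraries, against 2 and 2699 with it; DESeq2 size factors gave 2 and 2728. In 7 of 12 pairs the first gene was higher in both libraries, and no pair changed sign with a pseudocount of 0.1, CPM, posterior mean TPM or either library alone. Of 60 such alternative values, 25 were counted as moved in size and 35 as the same. Pairs were not recomputed on coding transcripts, where the mean of Igf2bp1, 6.40 TPM, fell below that of Igf2bp3, 6.46. With posterior mean TPM, Lin28a and Hmga2 changed places at the bottom of the order. Coding transcripts alone lowered Bcl11a from 4.13 to 2.79 TPM and Igf2bp2 from 0.115 to 0.01. No paired analysis was possible because there is 1 group. Depth limits Lin28a, Hmga2 and Igf2bp2, with 7 to 34 counts a library.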
